A study of Mus musculus with 3 samples.

Results

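The microRNA loci with an NFI site are the genome intervals on 3 deposited lists, in which the coordinates of microRNA primary transcripts were intersected with the in vivo NFI sites. The lists hold the transcripts with a site within the transcribed region, within 1 kb upstream or within 1 kb downstream. They comprised 95 lines, of which 94 intervals were distinct (80 within, 12 upstream and 2 downstream). The intervals merged into 76 separate loci, carried 175 microRNA names and held 254 of the 39807 deposited sites. Of these sites, 240 lay within a transcript, 12 upstream and 2 downstream.

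The sites came from ChIP-Seq of primary mouse embryonic fibroblasts (MEF) of strain C57BL/6, taken from embryos of 14.5 days and used at passages 6 to 7. There was 1 library of NFI ChIP from wild-type cells, 1 of NFI ChIP from NFI-C knock-out cells and 1 of wild-type input DNA that saw no antibody. The NFI-C gene had been disrupted by insertional mutagenesis. The antibody was raised against the whole NFI group, so the knock-out cells may still hold the other NFI proteins that it binds, and the level of these proteins was not analysed here. A description line of the knock-out library names wild-type cells whereas its title names knock-out cells; the title was followed. No library had a replicate, so all values describe these libraries and no test across samples was made.

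MicroRNAs are short RNAs cut from a hairpin inside a longer primary transcript, and many hairpins lie in the introns of a host gene. The mature strand pairs with target mRNAs mainly through its seed, the bases near its 5′ end, and lowers their translation or stability. NFI proteins (NFI-A, NFI-B, NFI-C and NFI-X) bind as dimers to a palindrome made of the arm TTGGCA and its reverse complement TGCCAA with 3 free bases between them.

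RefSeq hairpins of the GRCm38.p6 set were placed on the mm9 sequence (NCBI build 37) by exact match, which found 125 hairpins in 61 of the 76 loci. The mature strands below belong to the loci with a site upstream of the transcript, and are shown to identify the regulators made there. One strand is shown per hairpin, with the seed (bases 2 to 8) in capitals and its mm9 position and strand in parentheses.
miR-199a-5p (chr1:164147975-164147997 plus): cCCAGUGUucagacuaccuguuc
miR-214-3p (chr1:164153569-164153590 plus): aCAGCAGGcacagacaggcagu
miR-31-5p (chr4:88556518-88556539 minus): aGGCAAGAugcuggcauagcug
miR-27b-3p (chr13:63402068-63402088 plus): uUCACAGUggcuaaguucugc
miR-24-3p (chr13:63402559-63402580 plus): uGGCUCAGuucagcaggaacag
miR-181a-5p (chr1:139863045-139863067 plus and chr2:38708261-38708283 plus): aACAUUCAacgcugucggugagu
miR-181b-5p (chr1:139863227-139863250 plus and chr2:38709365-38709388 plus): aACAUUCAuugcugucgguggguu
miR-128-3p (chr9:112021148-112021168 minus): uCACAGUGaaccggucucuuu
miR-301a-3p (chr11:86926556-86926578 plus): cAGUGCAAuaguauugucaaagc
miR-33-5p (chr15:82028557-82028577 plus): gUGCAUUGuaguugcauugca
miR-674-5p (chr2:117010887-117010908 plus): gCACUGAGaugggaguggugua
miR-181a-5p and miR-181b-5p share their seed, and each is made from both listed mir-181 loci. The locus on chromosome 1, listed as mir-181a-2/mir-181b-1, held the RefSeq hairpins Mir181a-1 and Mir181b-1, and the one on chromosome 2, listed as mir-181a-1/mir-181b-2, held Mir181a-2 and Mir181b-2. The listed names are used here. The mature strands of miR-23b, miR-25, miR-93, miR-106b, miR-28 and miR-125b are named only.

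Of 204 distinct seeds among the matched mature strands, 10 occurred in more than 1 locus with an NFI site. The strands below are from such families. The seed shared by miR-15b, miR-16 and miR-322, a family known to restrain the cell cycle, occurred in 3 loci, and each of the others in 2 as far as strands were matched. The strand of let-7a-2 with the let-7 seed was not among them, although its hairpin lies in the mir-125b-1/mir-100/let-7a-2 locus.
miR-15b-5p (chr3:68813697-68813718 plus): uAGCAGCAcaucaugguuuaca
miR-16-5p (chr14:62250773-62250794 minus and chr3:68813840-68813861 plus): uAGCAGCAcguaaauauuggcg
miR-322-5p (chrX:50407483-50407504 minus): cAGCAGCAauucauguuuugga
miR-99a-5p (chr16:77599185-77599206 plus): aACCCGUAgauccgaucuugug
miR-100-5p (chr9:41339520-41339541 plus): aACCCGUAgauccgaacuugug
let-7c-5p (chr15:85537046-85537067 plus and chr16:77599917-77599938 plus): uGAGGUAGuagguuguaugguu
miR-218-5p (chr11:35430342-35430362 plus and chr5:48615205-48615225 plus): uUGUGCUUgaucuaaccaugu
miR-26a-5p (chr10:126432599-126432620 plus and chr9:118940929-118940950 plus): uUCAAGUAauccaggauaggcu
miR-99a and miR-100 have the same seed and come from the 2 parallel clusters that also make let-7 and miR-125b. Identical miR-218 strands come from introns of Slit3 (mir-218-2) and Slit2 (mir-218-1), and identical miR-26a strands from introns of the phosphatase genes Ctdsp2 and Ctdspl.

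The libraries contained 12029975 to 16330049 reads. Tags were counted by their 5′ end when uniquely mapped, and those with the same position and strand were counted as 1, which left 3132004 (knock-out), 3350071 (wild type) and 4100449 (input) tags. Site counts are tags in 300 bp centred on the deposited site, where the genome average was 0.393 wild-type, 0.367 knock-out and 0.481 input tags. Intervals are 95% intervals (exact Poisson for counts, exact binomial for shares and ratios) and cover counting error only. Wild-type tags defined the sites, so wild-type counts are a description. At a single site 4 tags have an interval of 1.09 to 10.2 and 1 tag one of 0.0253 to 5.57, so most single sites do not separate the libraries.

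The 254 sites of microRNA loci held 814 wild-type tags, 1 to 8 per site with a median of 3. They held 195 knock-out tags, 0 to 9 per site, and 170 input tags, 0 to 7 per site, both with a median of 0. As fold over the genome average, this was 8.16 (7.61 to 8.74) for wild-type tags, 2.09 (1.81 to 2.41) for knock-out tags and 1.39 (1.19 to 1.62) for input tags. Scaled by library totals, knock-out over wild-type tags came to 0.256 (0.218 to 0.300), beside 0.252 (0.249 to 0.255) at the other deposited sites. Since wild-type tags chose the sites, a ratio below 1 was set by that choice. The knock-out ChIP was above the input by 1.502 times (1.22 to 1.86).

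Wild-type tags spread about 400 bp to each side of the deposited positions and more to their right, at microRNA and other sites alike. The authors shifted tags by 75 bp in their direction to call the sites. With this shift, and in 600 bp, 251 of the 254 sites (98.8%) had 5 or more wild-type tags, as had 99.6% of the other deposited sites. The knock-out ChIP was then 1.30 times (1.12 to 1.51) the input, against 1.09 (1.08 to 1.11) at the other sites.

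**Figure D1:**
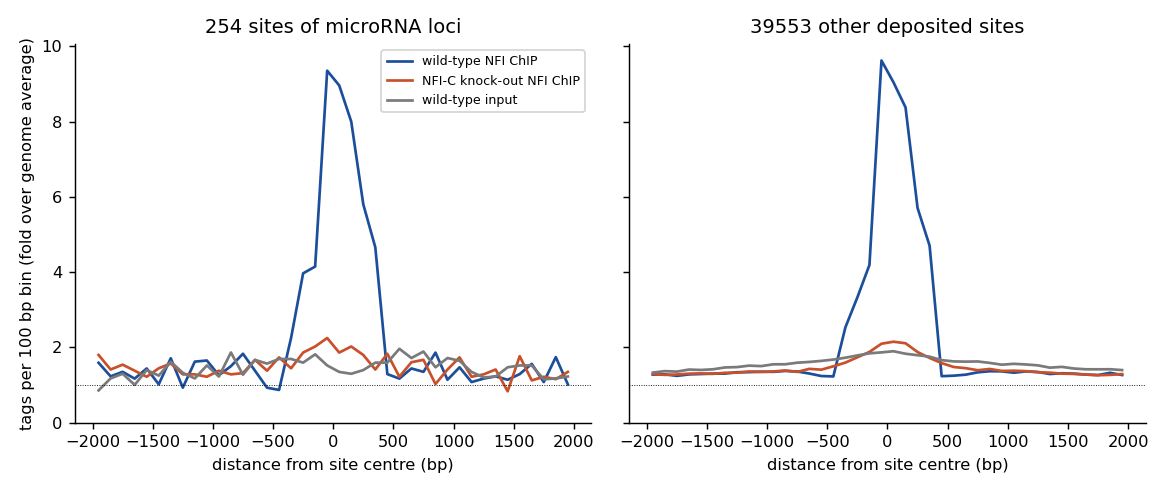
Tags per 100 bp bin, as fold over the genome average, against the distance from the site centre in bp, for the 254 sites of microRNA loci (left) and the 39553 other deposited sites (right). Lines are the wild-type ChIP, the knock-out ChIP and the input, and the dotted line marks the genome average. The wild-type line reached 9.35 in the bin left of the microRNA sites, where the knock-out line stood at 2.25 and the input line at 1.52.

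The other 39553 deposited sites had 8.30-fold wild-type, 2.09-fold knock-out and 1.88-fold input tags. Tags per site of the microRNA loci relative to these were 0.983 (0.916 to 1.05) in the wild-type ChIP and 0.999 (0.863 to 1.15) in the knock-out ChIP, where both intervals include 1. With every uniquely mapped tag counted, in place of 1 per position and strand, the ratios were 0.821 and 0.648. Copies then count as separate tags, at 2.92 (wild type) and 3.45 (knock-out) reads per distinct tag, so no interval is given for this setting. Single sites among the others reached 288 wild-type and 292 knock-out distinct tags, against 8 and 9 at the microRNA sites. The input was lower at microRNA sites, 0.742 times (0.635 to 0.863) the level of the other sites, and 0.231 times with every uniquely mapped tag counted. Sites with 5 or more input tags numbered 3 in the microRNA loci (1.18%, against 2.03% of all deposited sites), and without such sites in either group the ratio was 0.928 (0.785 to 1.09). The knock-out over input ratio was 1.12 (1.10 to 1.13) at the other sites, and 1.42 (1.40 to 1.45) at those with fewer than 5 input tags, against 1.69 (1.36 to 2.11) at the microRNA sites treated the same way.

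Knock-out tags were absent from 142 of the microRNA sites (55.9%), and from 58.3% of all deposited sites. In raw counts, not scaled for the larger input library, they exceeded the input tags at 71 sites, fell below them at 68 and equalled them at 115. All deposited sites had more knock-out than input tags in 27.2% of cases. At 6 microRNA sites the knock-out tags exceeded the wild-type tags, where 3.18% of all deposited sites did so. By locus, 30 of 76 held no knock-out tag at any site. Of the 76 loci 35 had only 1 site and 15 had 2, and no share over comparable groups of other sites was computed. The locus count is thus not a result beyond the share by site.

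The upstream list holds 12 transcripts, and their upstream sites had 38 tags from the wild type, 19 from the knock-out and 15 from the input in sum. Knock-out tags stood at 4.31-fold (2.60 to 6.73) and input tags at 2.60-fold (1.46 to 4.29) the genome average. The ratio of knock-out to input was 1.66 (0.799 to 3.51), so the 2 libraries did not stand apart beyond counting error. The transcript starts are those of other work and were not checked in these cells. Of the 12 sites 7 lay within 2 kb of an annotated transcript start, hairpins not counted. The others were those of mir-199a-2/mir-214 (2.48 kb away), mir-674 (14.9 kb), mir-181a-2/mir-181b-1 (30.3 kb), mir-23b/mir-27b/mir-24-1 (33.8 kb) and mir-31 (50.1 kb).

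Closest to its transcript start was the site of mir-31, 14 bp upstream (chr4:88576155-88576170), with 3 wild-type tags and 0 in both other libraries. The site 33 bp upstream of mir-181a-1/mir-181b-2 (chr2:38678777-38678792), which encode regulators of lymphocyte signalling, had 4, 0 and 0 tags (wild type, knock-out, input). The site 138 bp upstream of mir-674 (chr2:116962300-116962315), in the Spred1 gene, also had 4, 0 and 0. These sites had tags in the wild-type ChIP alone, although a count of 0 has an interval that reaches 3.69 tags. In 600 bp the site of mir-31 had 2 knock-out tags, that of mir-674 had 2 knock-out and 2 input tags, and that of mir-181a-1/mir-181b-2 again had none of either.

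The site 926 bp upstream of mir-199a-2/mir-214 (chr1:164145271-164145286), which lie in the noncoding Dnm3os transcript of mesenchymal cells, had 4 tags from the wild type, 1 from the knock-out and 2 from the input. Both mir-181a-2/mir-181b-1 (770 bp upstream, chr1:139794393-139794408) and mir-128b (869 bp upstream, chr9:112138207-112138222, in Arpp21) had 4, 1 and 1. The sites upstream of mir-28 (746 bp, chr16:24392822-24392837, before the start of Lpp), mir-301a (652 bp, chr11:86922100-86922115) and mir-125b-1 (494 bp, chr9:41388882-41388897) each had 3, 1 and 1. In all of these the wild-type count was the highest of the 3 libraries by 2 or 3 tags.

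At the other 3 upstream sites the wild-type count in 300 bp was not the highest. The site 174 bp upstream of mir-33 (chr15:81977452-81977467), the microRNA in Srebf2 that restrains cholesterol efflux, had 2 tags from the wild type, 6 from the knock-out and 3 from the input. The site 120 bp upstream of mir-25/mir-93/mir-106b (chr5:138613203-138613218), the cluster in an intron of the replication gene Mcm7, had 2, 5 and 2. The site 773 bp upstream of mir-23b/mir-27b/mir-24-1 (chr13:63340723-63340738) had 2, 2 and 3. This order depended on the window. In 600 bp the counts were 6, 10 and 10 at the mir-33 site and 5, 5 and 4 at that of mir-25/mir-93/mir-106b. At the mir-23b site they were 7, 4 and 4, with the wild type highest.

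**Figure D2:**
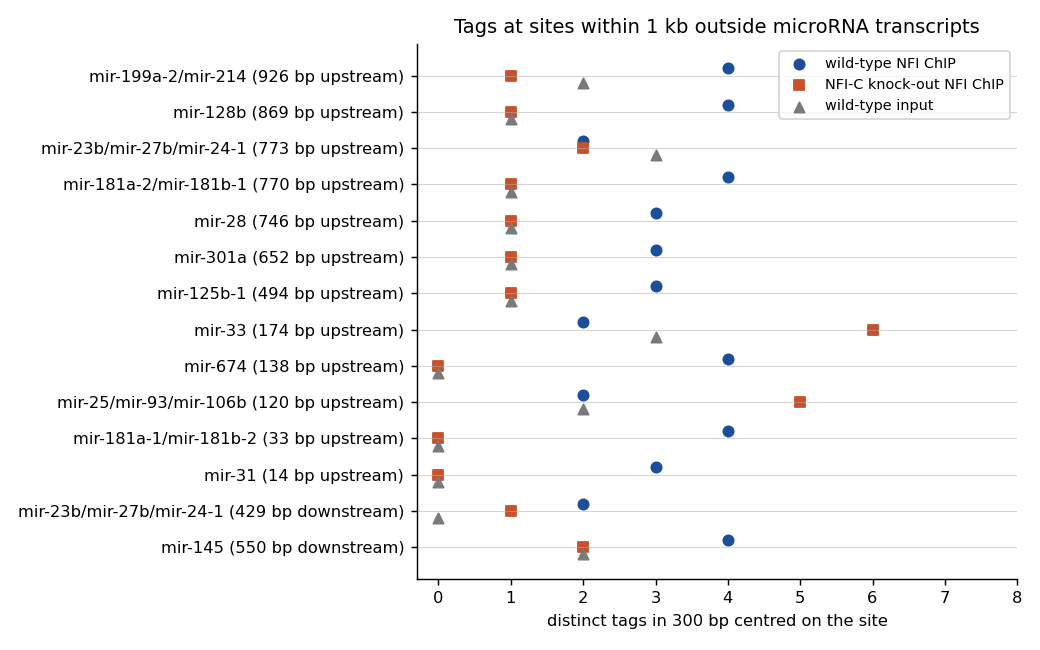
Distinct tags in 300 bp (x axis) at the 12 sites upstream and 2 sites downstream of microRNA transcripts (y axis, with the distance from the transcript). Circles are the wild-type ChIP, squares the knock-out ChIP and triangles the input. The wild-type count was 2 to 4 at every site, and the knock-out count passed it upstream of mir-33 (6) and mir-25/mir-93/mir-106b (5).

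The downstream list named mir-145, known for its part in smooth muscle differentiation, with a site 550 bp past the transcript end and 4 tags from the wild type, 2 from the knock-out and 2 from the input. It also named mir-23b/mir-27b/mir-24-1, with a site 429 bp past the end and 2, 1 and 0 tags. The mir-23b cluster was thus on all 3 lists. Its locus held 8 sites, of which the 2 richest lay 12.5 kb (5, 1 and 1 tags) and 5.72 kb (4, 1 and 0) into the transcript, and its summed site tags were 23 wild-type, 7 knock-out and 6 input.

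Distance from the start of the transcript went with the summed knock-out and input counts. The 34 sites within 2 kb of a start (29 loci) had 4.24-fold (3.18 to 5.55) knock-out and 3.24-fold (2.43 to 4.24) input tags over the genome average. The 218 sites farther inside had 1.74-fold (1.46 to 2.05) and 1.10-fold (0.906 to 1.32). Single sites near the start weighed on these sums. Knock-out tags reached 9 (let-7c-1), 8 (mir-31), 6 (mir-33) and 5 (mir-25/mir-93/mir-106b). Input tags reached 7 (mir-15b/mir-16-2 and mir-9-1) and 6 (mir-34a). Knock-out over input was 1.31 (0.878 to 1.95) near the start and 1.58 (1.23 to 2.04) farther away. The wild-type fold, for which the sites were chosen, was 8.46 (6.97 to 10.2) near the start and 8.12 (7.52 to 8.74) farther away. The mean GC content was 49.4% near the start and 41.7% farther away; its part in these counts was not tested. Relative to annotated transcript starts, the 41 microRNA sites within 2 kb had 2.69-fold (2.01 to 3.52) input tags, below the 4.47-fold (4.39 to 4.55) of the other deposited sites so placed. The median was 1 input tag per site in both groups. Single sites reached 7 input tags among the microRNA sites and 450 among the others, and a comparison without such sites was not made. Knock-out tags of the microRNA sites stood at 3.32-fold (2.46 to 4.38), against 3.04-fold (2.96 to 3.11).

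Sites with 5 or more knock-out tags numbered 5 (1.97%, against 1.81% of all deposited sites). The richest was the site 916 bp into the transcript of mir-125b-2/mir-99a/let-7c-1 (chr16:77501537-77501552), with 3 tags from the wild type, 9 from the knock-out and 1 from the input. Of the 9 knock-out tags 8 lay on the reverse strand, and they came from 28 reads. The other 3 sites of that locus had 3 wild-type tags each, 1 to 2 knock-out tags and 0 to 1 input tag.

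The site 1739 bp into the mir-31 transcript (chr4:88574402-88574417) had 3 tags from the wild type, 8 from the knock-out and 1 from the input, with 6 knock-out tags on the reverse strand. It lay between the upstream site and the third site, 5.17 kb inside, with 3, 1 and 0 tags. A site 261 kb into the Pde4d transcript that carries mir-582 had 5, 6 and 0 tags, from 36 knock-out reads. Without the let-7c-1 and mir-31 sites the knock-out ChIP was 1.39 times (1.12 to 1.72) the input over the microRNA sites.

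**Figure D3:**
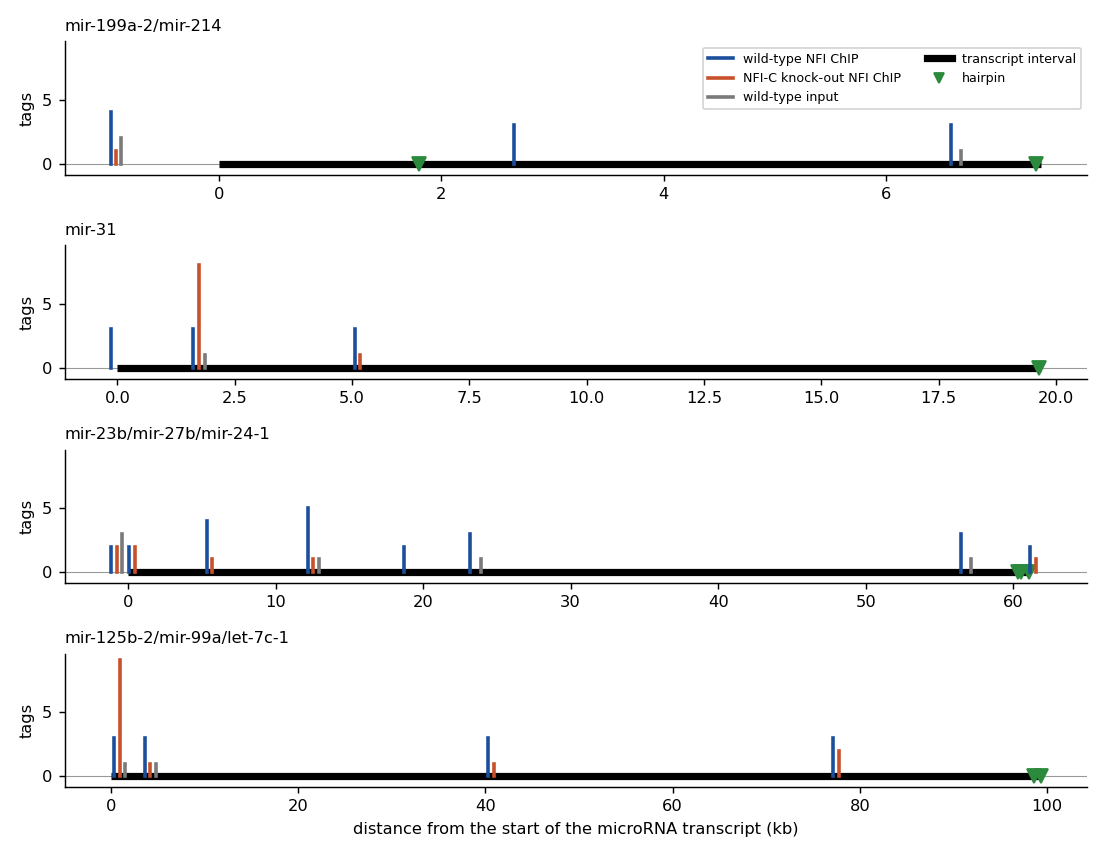
Maps of 4 loci by distance in kb from the start of the microRNA transcript (black bar), with vertical lines for the tags of each library in 300 bp at each deposited site (y axis) and triangles for the matched hairpins; the 3 lines of a site are set side by side. Knock-out tags exceeded wild-type tags at the site 1.74 kb into mir-31 (8 against 3) and 0.916 kb into the let-7c-1 transcript (9 against 3).

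A palindrome that differed at no more than 2 of its fixed positions lay within 150 bp of 10 sites (3.94%, 1.90 to 7.12), in 9 loci, where 3.12% of all deposited sites have one. The plus strand of mm9 is shown for each, in order of falling knock-out tags, with the 15 bp of the match in capitals and 20 bp on either side.
mir-125b-2/mir-99a/let-7c-1 (chr16:77501434-77501488): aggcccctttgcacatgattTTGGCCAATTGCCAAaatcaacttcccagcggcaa
mir-582 (chr13:110112431-110112485): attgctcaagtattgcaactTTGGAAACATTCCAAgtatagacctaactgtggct
mir-21 (chr11:86467152-86467206): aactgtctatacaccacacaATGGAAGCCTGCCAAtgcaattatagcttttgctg
mir-28 (chr16:24442727-24442781): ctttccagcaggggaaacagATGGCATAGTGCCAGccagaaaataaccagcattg
mir-218-1 (chr5:48513473-48513527): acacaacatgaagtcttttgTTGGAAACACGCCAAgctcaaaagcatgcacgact
mir-153 (chr12:118345327-118345381): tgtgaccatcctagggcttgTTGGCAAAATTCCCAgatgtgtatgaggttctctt
mir-876/mir-873 (chr4:36653876-36653930): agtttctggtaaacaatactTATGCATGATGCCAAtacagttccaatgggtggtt
mir-335 (chr6:30689538-30689592): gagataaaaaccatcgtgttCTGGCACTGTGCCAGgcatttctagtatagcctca
mir-28 (chr16:24569798-24569852): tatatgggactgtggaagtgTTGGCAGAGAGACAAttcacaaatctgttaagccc
mir-708 (chr7:103320775-103320829): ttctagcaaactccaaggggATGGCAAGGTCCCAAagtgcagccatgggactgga
The let-7c-1 site alone came within 1 mismatch, A6C (motif base, position counted from the left end of the match, then the base found). The intact arm TTGGCA, on either strand and also within a palindrome, occurred in 43 of the 300 bp windows (16.9%, 12.5 to 22.1), against 18.6% of all deposited sites. It was absent from the windows of the 12 upstream and 2 downstream sites.

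These 10 sites held 37 tags from the wild type, 23 from the knock-out and 4 from the input, and 8 of them had a knock-out tag. In the knock-out ChIP this was 6.26-fold (3.97 to 9.40) over the genome average, and 7.53 times (2.57 to 29.9) the input. Without the let-7c-1 site, 14 knock-out and 3 input tags remained, a ratio of 6.11 (1.71 to 33.2). The 244 microRNA sites with no palindrome had a ratio of 1.36 (1.09 to 1.69), an interval that lies below both. At the other deposited sites the ratio was 2.38 (2.21 to 2.57) with a palindrome and 1.08 (1.06 to 1.10) without. The knock-out fold over the genome average was alike at palindrome sites of both groups. It was 4.24 (2.32 to 7.11) at the microRNA sites without the let-7c-1 site and 4.13 (3.94 to 4.32) at the others. The input fold differed, 0.693 (0.143 to 2.03) from 3 tags against 1.73 (1.63 to 1.84).

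By locus, the palindrome site of mir-21 lay 30.1 kb into its transcript within Vmp1 and had 6 tags from the wild type, 3 from the knock-out and 2 from the input. A site of mir-582, 668 kb into Pde4d and 2.52 kb upstream of the mir-582 hairpin, had 5, 4 and 0, and one of mir-218-1 in Slit2 had 4, 2 and 0. The site of mir-708, in an intron of Odz4, had 5, 0 and 0. The remainder were in mir-28 (4, 2, 0 and 1, 0, 1), mir-335 in the imprinted Mest gene (4, 1, 0), mir-876/mir-873 in Lingo2 (3, 1, 0) and mir-153 in Ptprn2 (2, 1, 0).

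Long transcripts held most sites. The within intervals measured 1.19 to 765 kb with a median of 53.7 kb, and 35 of 76 loci had 1 site, 15 had 2, 21 had 3 to 9 and 5 had 10 or more. Those 5 loci held 96 sites (37.8%). They were mir-28 in the adhesion gene Lpp with 28 sites, mir-218-2 in Slit3 with 22, mir-582 in the phosphodiesterase gene Pde4d with 21, mir-218-1 in Slit2 with 15 and mir-204 in the channel gene Trpm3 with 10. The logarithms of length and site number had a Pearson correlation of 0.66 over the 80 within intervals, some of which overlap.

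**Figure D4:**
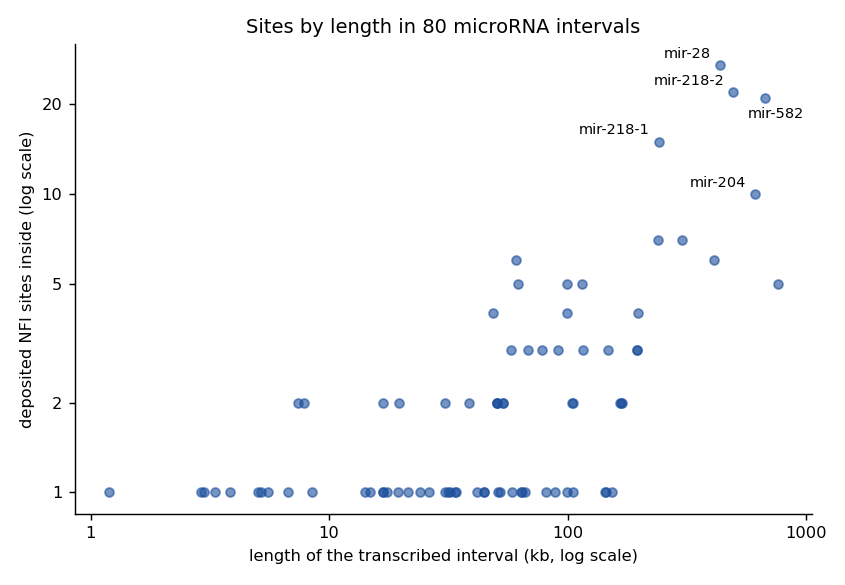
Deposited NFI sites (y axis, log scale) against the length in kb (x axis, log scale) of the 80 within intervals, 1 point per interval. Intervals with 10 or more sites are named, and the longest interval, mir-153 with 765 kb, held 5 sites.

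The same 5 loci led the summed wild-type tags, with 86 tags from the wild type, 13 from the knock-out and 20 from the input in mir-28, 72, 19 and 10 in mir-218-2, and 71, 29 and 14 in mir-582. The locus of mir-218-1 had 43, 11 and 6, and that of mir-204 33, 4 and 4. Pde4d thus held more knock-out tags than Lpp at fewer sites. By knock-out tags the let-7c-1 locus, with 13 at 4 sites, came level with mir-28 and before mir-218-1. By wild-type tags, next came mir-190 in Tln2 (27, 6 and 5 over 7 sites), the mir-23b cluster given above, mir-21 (22, 5 and 8 over 5 sites) and mir-140 in Wwp2, a cartilage microRNA (18, 1 and 7 over 5 sites). The summed tags of mir-383, in the sarcoglycan gene Sgcz, were 17, 5 and 3, and those of mir-876/mir-873 were 17, 3 and 2.

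The lists contain a transcript only where it has a site, so the share of all microRNA genes with a site was taken from the annotation. Of 1577 annotated microRNA genes (GENCODE vM1), 68 (4.31%) had a deposited site inside or within 1 kb. A site lay upstream in 36, downstream in 32 and inside in 2, with some genes in more than 1 of these classes. These annotated genes are the short hairpins and not the primary transcripts of the lists, so the share is no background rate for the lists. Over the genome there were 1.56 deposited sites per 100 kb. Protein-coding genes that contain a microRNA had a site in 279 of 419 cases (66.6%, 61.8 to 71.1), against 35.3% of all 22367 protein-coding genes. Within classes of gene length the shares lay closer, 41.1% of hosts against 36.5% of all genes from 10 to 50 kb, 75.6% against 69.5% from 50 to 100 kb, 87.5% against 86.2% from 100 to 200 kb and 98.9% against 97.3% above. Hosts under 10 kb had a site in 8 of 36 cases (22.2%) against 9.68%. Pooled over all lengths, site density was 2.04 per 100 kb in hosts and 2.05 in all genes. Within each length class it was higher in hosts, from 4.44 against 2.79 under 10 kb to 1.95 against 1.93 above 200 kb.

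Most microRNA sites were intronic, 219 of 254 (86.2%), with 17 in exons and 18 outside genes (7.09%). Of all deposited sites 46.7% were intronic, 6.72% exonic and 46.6% outside genes, and the lists hold only sites in or next to transcripts. Hairpins were seldom close, as 7 of 202 sites with a matched hairpin in the locus lay within 1 kb of one and 24 within 5 kb, and the median distance was 55.9 kb. Nearest was the site 148 bp upstream of the mir-490 hairpin in Chrm2 (3 tags from the wild type, 0 from the knock-out and 0 from the input). The 2 sites inside the mir-199a-2/mir-214 transcript lay 906 bp downstream of the mir-199a-2 hairpin (3, 0 and 0) and 715 bp upstream of the mir-214 hairpin (3, 0 and 1).

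Among the microRNAs known from fibroblasts, mir-29a/mir-29b-1, which restrain collagen synthesis, had 1 site 1.77 kb into their transcript with 4, 1 and 3 tags. The cluster mir-125b-1/mir-100/let-7a-2 had 5 sites with 17, 6 and 1 tags in sum, and the sites of mir-26a-2 (5, 0, 0), mir-26a-3 (4, 0, 1), let-7c-2/let-7b (3, 0, 0), mir-107 (3, 0, 0) and mir-101b (4, 1, 0) had 0 or 1 tag outside the wild-type ChIP. The cell cycle family was less uniform. The 2 sites of mir-16-1/mir-15a, in Dleu2, held 11, 2 and 1 tags and the 1 site of mir-503/mir-322 held 2, 0 and 2, whereas the site of mir-15b/mir-16-2, in Smc4, had 2, 0 and 7. High input marked also the sites of the neural mir-9-1 (4, 0, 7) and of mir-34a, a target of p53 (3, 1, 6). Input exceeded the wild-type ChIP at these 3 sites, whose GC content was 63.0 to 66.3%.

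The large imprinted Rian cluster around mir-379 held 3 sites with 9, 0 and 3 tags in sum, and the mir-466/mir-467 cluster in Sfmbt2 held 1 with 4, 0 and 0. The remaining fibroblast microRNAs included mir-10b, in the Hoxd cluster, with 1, 0 and 0 tags, and mir-146b with 4, 0 and 3. A separate locus listed as mir-125b-2 alone had 1 site with 4, 0 and 1.

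Over whole transcripts the libraries were close to the ratio of their totals. Tags in the merged within intervals, relative to library totals, gave 1.04 (1.02 to 1.07) for wild type over input and 1.01 (0.986 to 1.04) for knock-out over input. With 600 bp around each site left out, wild type over input was 0.962 (0.939 to 0.986). Among 74 intervals with 20 or more input tags the median was 1.01 for wild type and 0.984 for knock-out over input. The 14825 protein-coding genes with as many input tags had medians of 0.844 and 0.848. The intervals were listed for a site called on wild-type tags and some overlap, whereas the genes were not so chosen. Length was not matched, so the medians do not compare like sets. Of the 74 intervals, 2 (mir-31 and mir-674) had at least 1.5 times as many wild-type as input tags, where 1.91% of protein-coding genes did. One, mir-31 again, reached 1.5 in the knock-out ChIP, where 1.9% of genes did. The mir-31 interval held 64 tags from the wild type, 52 from the knock-out and 38 from the input, 2.06 times (1.36 to 3.17) and 1.79 times the input. The cut of 20 input tags left out mir-199a-2/mir-214, which had 19 and a higher wild type over input ratio, 2.32 (1.30 to 4.28). Ratios of the within intervals below the cut went down to 0.841 (0.353 to 1.93) for mir-301a.

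The deposited histone and lamina domains are broad regions that the authors derived from other experiments. The median length was 16547 bp for H3K4me3 regions and 480424 bp for lamina domains. H3K4me3 regions covered 18.8% of the genome and 34.6% of the merged within intervals, so a site inside one need not lie at a promoter. H3K27me3 regions covered 40.3% of the genome and lamina domains 40.1%. Sites of microRNA loci lay inside H3K4me3 regions, a mark of promoters, in 167 of 254 cases (65.7%, 59.6 to 71.6), against 42.6% of all deposited sites. In protein-coding genes the shares were 62.6% (55.9 to 69.0) of 222 and 51.3%. Without the 5 loci with 10 or more sites the share was 57.6% (49.5 to 65.4) of all microRNA sites and 50.4% (41.4 to 59.4) of the 127 in protein-coding genes, an interval that includes the 51.3%. All sites were inside in 40 loci and all were outside in 23. Near annotated starts the count was 33 of 41, beside 76.6% of all deposited sites so placed.

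H3K36me3, a mark of transcribed gene bodies, held 63.0% (56.7 to 68.9) of the microRNA sites against 35.4% of all sites. In protein-coding genes this became 60.8% against 59.0%. H3K27me3, a mark of Polycomb repression, held 55.9% against 54.4%, and 54.1% against 49.7% in genes. Lamina domains, mapped in human fibroblasts and placed on the mouse genome by the authors, held 22.0% (17.1 to 27.7) against 32.4%, and 24.3% against 24.8% in genes. Of the 56 sites in lamina domains, which lay in 13 loci, 22 were those of mir-218-2.

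**Figure D5:**
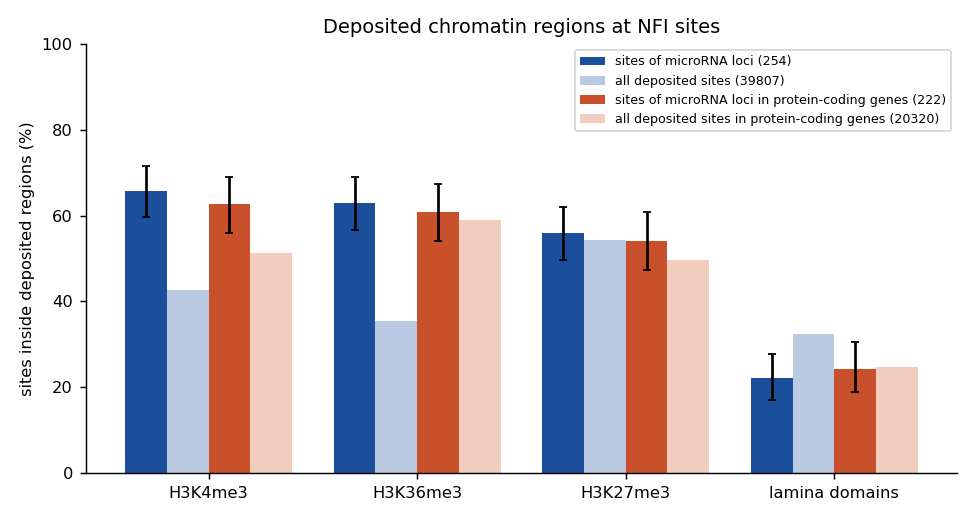
Share of sites (y axis, percent) inside deposited H3K4me3, H3K36me3, H3K27me3 and lamina regions (x axis), for microRNA sites and all deposited sites (blue) and for both within protein-coding genes (red). Bars start at 0 and error bars are exact binomial 95% intervals, drawn for the microRNA sites. In genes the H3K36me3 bars were 60.8% and 59.0%, and the H3K4me3 bars 62.6% and 51.3%, the former 50.4% without the 5 loci of 10 or more sites.

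The combination of H3K4me3, H3K36me3 and H3K27me3 covered 81 microRNA sites (31.9%), against 13.2% of all deposited sites. In protein-coding genes the shares were 29.7% and 19.5%. Of the 81 sites 22 were those of mir-218-2, 14 of mir-28, 8 of mir-23b/mir-27b/mir-24-1, 3 of mir-218-1 and 1 of mir-582. All 22 sites of mir-218-2 lay in lamina domains as well. The shares without the 5 loci with 10 or more sites were not computed, so an excess beyond these loci is not shown. H3K4me3 with H3K36me3 covered 57 (22.4%, against 11.7%, and in genes 22.1% against 20.8%). H3K27me3 alone covered 34 (13.4%, against 24.1%, and in genes 14.9% against 17.5%), and none of the marks 31 (12.2%, against 22.8%, and in genes 13.5% against 12.5%). Of the 12 upstream sites 11 lay in both H3K4me3 and H3K36me3 regions and 9 in H3K27me3 regions. The exception to the first 2 was mir-128b, a microRNA of the brain, whose 4 sites all lay in lamina domains and outside H3K4me3 and H3K36me3 regions. For comparison, H3K4me3 regions held 76.6% of the deposited sites within 2 kb of an annotated start. Over all deposited sites, H3K36me3 regions held 35.4% and H3K27me3 regions 54.4%. The shares of these 2 marks, and of the combination, near annotated starts were not computed.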

How the data were processed

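Chromatin of the 3 samples was sequenced on 1 library each. Per the labels and the study's methods, the authors aligned the reads and called sites with ChIP-peak on the wild-type tags, and the submitters' processing notes name mm9. The deposited alignments were turned into tag counts with the filter given above. The deposited lists hold coordinates and no normalised unit. The microRNA transcripts had been mapped in other work and moved to mm9 by the authors, as had the lamina domains from human cells.

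Sites were joined to intervals by position, and intervals that overlapped were merged into loci. Genes came from GENCODE vM1 on NCBIM37 and microRNA sequences from RefSeq. Python 3.11.15, numpy 2.4.6, pandas 2.3.3, scipy 1.17.1, pysam 0.24.0 and matplotlib 3.10.9 were used. Ratios were scaled by distinct tag totals. The loci named are those of the upstream and downstream lists, the 10 with the most wild-type and the 10 with the most knock-out tags at their sites, the 5 with the most sites, those with a palindrome, and listed microRNAs of fibroblasts and imprinted clusters. Sites rich in input tags and the site nearest to a hairpin were chosen after their values were seen. The members and lists were chosen with earlier results of these data known. Alternatives are given in the closing section.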

Additional observations from a re-analysis of the deposited data

How the results depend on the processing

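With 1 library per condition, library preparation and condition cannot be told apart, and the libraries had 1.32 (input) to 3.45 (knock-out) reads per distinct tag. With every uniquely mapped tag counted, microRNA sites relative to the other sites fell to 0.821 (wild type), 0.648 (knock-out) and 0.231 (input). In 600 bp windows the wild-type fold was 6.71 and wild type over input 4.47. Without sites of 5 or more input tags the input ratio to the other sites was 0.928. Scaled by flanking tags, whole intervals gave 1.10 for wild type and 1.04 for knock-out over input. With at most 1 mismatch 0.394% of sites held a palindrome, and 16.9% an intact arm TTGGCA. A site lay within 5 kb of 16.8% of annotated microRNA genes, and inside 66.6% of the genes that host a microRNA. Some alternatives were chosen after seeing the data. Intervals without 600 bp around each site gave 0.962 for wild type over input and 1.04 for knock-out over wild type, both on the other side of 1, since the rule placed wild-type tags at these sites. Without the 5 loci of 10 or more sites, 57.6% of sites were in H3K4me3 regions. No paired analysis was possible because each condition has 1 library.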

Other observations

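Several microRNAs known from fibroblasts or stem cells were not on the lists, and their distances to the nearest deposited site, taken from the annotated hairpin, are given here. Why they are not listed was not tested. The hairpin of mir-30a had a site 327 bp downstream with 3 tags from the wild type, 1 from the knock-out and 1 from the input. For mir-155, an immune regulator, the nearest site was 1.68 kb downstream (4, 0 and 1), for let-7i 2.21 kb downstream (3, 1 and 3) and for mir-22 2.70 kb upstream (6, 0 and 1). The site nearest to mir-26b, 2.49 kb downstream, had 3, 4 and 5 tags. For mir-29b-2/mir-29c the nearest site was 2.99 kb upstream of the closer hairpin (4, 2 and 0). The nearest site to mir-17 lay 189.6 kb upstream.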
